A study of Homo sapiens with 5 samples.

Results

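The ubiquitin-conjugating enzyme genes were taken as every gene whose symbol is UBE2 followed by 1 letter and, in some, digits, and under which at least 1 poly(A) site was first listed in the deposited table. There were 33 such genes among the 29792 with a first listing, on 20 chromosomes. Their 655 listed sites held 39425 reads, which was 0.301 to 0.363% of the reads of a library, and 144 of these sites held 10 or more reads over the 5 libraries.

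The study used poly(A) site sequencing, in which fragmented total RNA is reverse transcribed from its poly(A) tail, so that each read marks the 3′ end of an mRNA. HEK293T cells, which derive from human embryonic kidney, served as the wild type control. The CFIm59 knockout (gene CPSF7) and the CFIm68 knockout (gene CPSF6) were made from them with CRISPR/Cas9, and each was sampled as 2 different cell lines. No treatment was given beyond the editing, whether each line grew from 1 cell was not recorded in the labels, and the control was 1 library, so p-values rest on the spread between lines of a genotype.

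CFIm is a 3′ end processing factor. Its small subunit CFIm25, encoded by NUDT21, recognises UGUA in the RNA and pairs with CFIm59 or CFIm68. Many genes carry more than 1 poly(A) site in their last exon, and the site used sets how long the 3′ untranslated region is. Ubiquitin is passed from an activating enzyme (E1) to the catalytic cysteine of a conjugating enzyme (E2) and then, with a ligase (E3), to a substrate. The UBE2 genes encode the E2 family, in which UBE2M and UBE2F carry NEDD8, UBE2L6 carries ISG15, and UBE2V1 and UBE2V2 lack the catalytic cysteine and act as partners of UBE2N.

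The libraries held from 1673687 to 2924266 reads, of which 6.01 to 10.8% were mitochondrial. The labels were checked on the edited genes. In CPM, reads scaled to a common library total, CPSF6 fell from 120 in the control to 46.8 ± 1.58 (SD, n = 2) in lines lacking CFIm68 (log2 -1.35, adjusted p = 0.00052, edgeR's quasi-likelihood test). CPSF7 stood at 59.8 in the control and 62.0 ± 9.15 in lines lacking CFIm59, and since the edited part is not given here, its 3′ end reads do not check that label. In lines lacking CFIm68, CPSF7 was higher than in the control, at 128 and 204 (log2 1.47, adjusted p = 0.00094, the same test). NUDT21 did not pass the test against the control in either knockout (adjusted p of 0.0583 and 0.759). Between the knockouts it did, higher in the CFIm68 knockout (log2 0.88, adjusted p = 0.0016). The 9 HEK293T markers summed to 875 to 1362 CPM, of which VIM alone gave 541 to 1159. The sum thus does not stand for each marker. IRS4 was at 10.9 in the control, 0 and 0 in lines lacking CFIm59 and 22.4 and 9.14 in lines lacking CFIm68. NEFM was at 33.9, then 8.36 and 36.0, and 68.9 and 103 in the same order. On the same unscaled measure, markers of blood summed to at most 1.10, of endothelium to 1.83, of fibroblasts to 17.8 and of epithelium to 56.8. Of these, 1 of 4 blood, 1 of 3 endothelial and 1 of 5 fibroblast markers were at 0 in all libraries. The epithelial sum was highest in CFIm59 knockout line 1, and its part in the results was not tested.

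For each gene, the pair of sites with most reads was compared, and the upstream one on the gene's strand is called proximal. Proximal use is the proximal site's share of the reads of both. This pair could be tested in 27 of the 33 genes, in 24 of them with both sites in the last exon. The remaining 6, UBE2C, UBE2L6, UBE2M, UBE2S, UBE2U and UBE2V1, had too few reads at a second site. A gene was called changed when its adjusted p in edgeR's quasi-likelihood test, over all 5869 tested genes, lay under 0.05. Log2 changes are of the ratio of proximal to distal reads, and positive ones go toward proximal.

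Loss of CFIm68 went with more proximal use: 13 of the 27 genes changed toward proximal and 0 toward distal. Of all tested genes, 25.3% changed to proximal and 3.14% to distal. The median log2 change was 1.32 over the 27 genes and 0.61 over all. Both CFIm68 knockout lines lay above the control in 21 of the 27, as they did in 59% of all tested genes. Among the genes that changed were UBE2A, UBE2B, UBE2D1, UBE2D3, UBE2G1, UBE2J1, UBE2K, UBE2N, UBE2Q1, UBE2R2, UBE2V2 and UBE2W. DESeq2 called 11 to proximal, without UBE2A (adjusted p = 0.151, in a range of 0.00221 to 0.151 over the alternatives) and UBE2G1 (0.236, in a range of 1.31e-09 to 0.236). For the 0 changes to distal, DESeq2 also gave 0, and 0 genes had an unadjusted p under 0.05 in that direction.

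**Figure D1:**
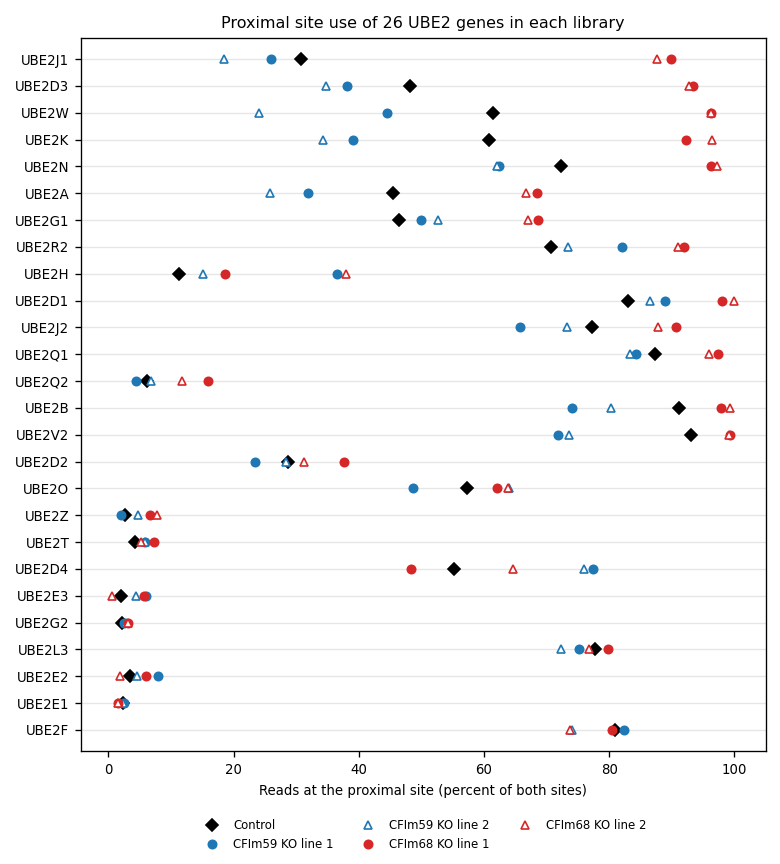
Reads at the proximal site as a percent of the reads at both sites (x axis) for 26 of the 27 tested UBE2 genes (y axis), 1 symbol per library: the control (black), 2 CFIm59 knockout lines (blue) and 2 CFIm68 knockout lines (red), in order of the CFIm68 knockout minus control difference. Both CFIm68 knockout lines lie above the control in 20 of the 26 genes drawn.

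The change with most percentage points was in UBE2J1, an enzyme anchored in the endoplasmic reticulum membrane that serves the disposal of misfolded proteins. Its sites lay in the last exon on chromosome 6, minus strand, at 90039330 and 90037789 (hg19, as all coordinates here). Proximal use of UBE2J1 was 30.8% in the control (95% Wilson interval 22.9 to 40.1, given likewise in parentheses for the control below), 25.9 and 18.4% in lines lacking CFIm59, and 89.8 and 87.7% in lines lacking CFIm68. Both CFIm68 knockout lines lay far above every other library, and both CFIm59 knockout lines lay below the control. UBE2J1 thereby changed by 57.9 points (log2 4.17, SE 0.49, adjusted p = 5.70e-10). UBE2J2, its paralogue in the same membrane (chromosome 1, sites at 1190281 and 1189293), showed 77.2% proximal use in the control, 65.7 and 73.2% in lines lacking CFIm59 and 90.6 and 87.7% in lines lacking CFIm68. Its CFIm68 knockout lines also lay above all others, but against the control it did not pass (log2 1.30, adjusted p = 0.0637).

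The UBE2D enzymes are close relatives that work with a wide range of E3 ligases, and their site pairs differed. In UBE2D3 (chromosome 4, minus strand, sites at 103717748 and 103717133) proximal use was 48.1% in the control (44.2 to 52.1), 38.1 and 34.8% in lines lacking CFIm59, and 93.3 and 92.7% in lines lacking CFIm68. In the control the pair was used about equally, and in lines lacking CFIm68 little distal use was left (a difference of 44.9 points; log2 3.84, SE 0.38, adjusted p = 2.92e-12). UBE2D1 (chromosome 10, sites at 60129355 and 60130508) showed 83.0% proximal use in the control (75.0 to 88.9), 88.9 and 86.5% in lines lacking CFIm59, and 98.0 and 100% in lines lacking CFIm68. In CFIm68 knockout line 2 its distal site held 0 of 64 reads, so that by counting error a share of at most 4.69% remains possible. UBE2D1 changed to proximal (log2 3.91, SE 0.86, adjusted p = 0.000227). UBE2D2 (chromosome 5, sites at 139006441 and 139007275) showed 28.6% proximal use in the control, 23.4 and 28.3% in lines lacking CFIm59 and 37.6 and 31.2% in lines lacking CFIm68, and did not pass (adjusted p = 0.531). UBE2D4, the least read of the 4 pairs with 25 to 38 reads per library, stood at 55.3% in the control, 77.4 and 76.0% in lines lacking CFIm59 and 48.4 and 64.7% in lines lacking CFIm68, where the control lay between the lines (adjusted p = 0.95). Within the family, 2 of the 4 genes thus changed to proximal in the CFIm68 knockout, and the difference between the genes was not tested.

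The ends of annotated transcripts are shown for 2 paralogues whose site spacing could be found again among GENCODE release 29 transcripts, UBE2D1, which changed, and UBE2D2, which did not. That annotation is on GRCh38 and the sites are on hg19, so ends were matched only by an equal distance between them, within 3 nt, and 7 of the 27 genes gave such a match. Each line holds the last 30 bases of the transcript, 5′ to 3′, with a poly(A) signal AATAAA or ATTAAA in capitals.
UBE2D1 proximal: tttccatataAATAAAatgctttttctact
UBE2D1 distal: tttctttATTAAAgtttttgaaacttgcct
UBE2D2 proximal: tacaAATAAAgataggggaactctgaaaga
UBE2D2 distal: gtgtAATAAActggttactacagtcattac
In UBE2D1 the proximal end held AATAAA and the distal end its variant ATTAAA, whereas both ends of UBE2D2 held AATAAA. One of these hexamers, on the transcript strand, was in the last 30 bases of 38.4% of 83119 protein-coding transcripts. TGTA, the DNA spelling of the CFIm25 motif, was found 2 times in the last 100 bases of the proximal end of UBE2D1 and 0 times at its distal end. At UBE2D2 it was found 1 and 3 times, and in 39.4% of those transcripts at least once. The ends matched for UBE2D4 held neither hexamer and no TGTA, those of UBE2F neither hexamer, and in UBE2T the distal end alone held AATAAA. These matches describe the letters of the windows only.

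UBE2N makes ubiquitin chains for signalling and repair together with UBE2V1 or UBE2V2. UBE2N (chromosome 12, minus strand, sites at 93803133 and 93802148) showed 72.3% proximal use in the control (66.9 to 77.1), 62.4 and 62.1% in lines lacking CFIm59, and 96.3 and 97.3% in lines lacking CFIm68. Both CFIm68 knockout lines lay above the lone control library and both CFIm59 knockout lines below it. Against the control the CFIm68 knockout passed (log2 3.48, SE 0.47, adjusted p = 2.22e-08). The CFIm59 knockout did not (log2 -0.66, adjusted p = 0.372). UBE2V2 (chromosome 8, sites at 48974128 and 48977266) showed 93.0% proximal use in the control (89.8 to 95.3), 71.8 and 73.5% in lines lacking CFIm59, and 99.3 and 99.1% in lines lacking CFIm68. Its rise was 6.22 points, from a control value already near 100% (log2 3.21, adjusted p = 0.000262).

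UBE2A and UBE2B, both homologues of yeast RAD6, ubiquitinate histone H2B and the replication clamp. UBE2A (chromosome X, sites at 118717328 and 118718385) showed 45.5% proximal use in the control (39.4 to 51.8), 31.9 and 25.8% in lines lacking CFIm59, and 68.5 and 66.7% in lines lacking CFIm68. UBE2A thereby moved by 22.0 points on loss of CFIm68 (log2 1.32, SE 0.40, adjusted p = 0.00745). UBE2B (chromosome 5, sites at 133726468 and 133727222) showed 91.1% proximal use in the control (86.6 to 94.1), 74.1 and 80.3% in lines lacking CFIm59, and 97.8 and 99.3% in lines lacking CFIm68. Both paralogues changed to proximal, UBE2B by 7.50 points (log2 2.72, adjusted p = 0.00354). Without CFIm68 knockout line 2 the call of UBE2B ended (adjusted p = 0.0583, in a range of 0.00173 to 0.0583 over the alternatives).

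UBE2K builds chains that mark proteins for the proteasome, and its sites were 4097 nt apart, the widest last exon pair of the family (chromosome 4, 39780248 and 39784345). Proximal use of UBE2K was 60.9% in the control (51.7 to 69.3), 39.0 and 34.2% in lines lacking CFIm59, and 92.3 and 96.3% in lines lacking CFIm68. The CFIm68 knockout change was 33.4 points (log2 3.39, SE 0.51, adjusted p = 3.05e-07). UBE2W, which attaches ubiquitin to the amino terminus of proteins (chromosome 8, minus strand, sites at 74705193 and 74702847), showed 61.4% proximal use in the control (46.6 to 74.3), 44.4 and 24% in lines lacking CFIm59, and 96.3 and 96.2% in lines lacking CFIm68. Its pair held only 18 to 81 reads per library, and the lines lacking CFIm59 lay apart (34.2 ± 14.5%, SD, n = 2) where those lacking CFIm68 nearly coincided (CFIm68 knockout log2 3.96, adjusted p = 6.81e-05).

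UBE2G1 (chromosome 17, minus strand, sites at 4175325 and 4174730) showed 46.4% proximal use in the control (37.9 to 55.1), 50 and 52.6% in lines lacking CFIm59, and 68.6 and 67.1% in lines lacking CFIm68. UBE2R2, a partner of cullin ligases (chromosome 9, sites at 33917982 and 33920396), showed 70.6% proximal use in the control (64.0 to 76.5), 82.1 and 73.4% in lines lacking CFIm59, and 92.0 and 91.0% in lines lacking CFIm68. In both pairs all 4 knockout lines lay above the control, and only the CFIm68 knockout passed against it (UBE2G1 log2 1.28, adjusted p = 0.0155; UBE2R2 log2 2.16, adjusted p = 0.00019). UBE2G1 has a further distal site, at 4172554, outside the pair. Over all its sites, the proximal one held 30.7% of the reads in the control. It held 26.6 and 26.3% in lines lacking CFIm59 and 61.3 and 59.7% in lines lacking CFIm68. On that measure the CFIm59 knockout lines of UBE2G1 thus lay below the control. With no minimum beyond 1 read the call of UBE2G1 also ended (adjusted p = 0.0917). UBE2Q1 (chromosome 1, minus strand, sites at 154522460 and 154521053) went from 87.3% in the control (82.4 to 90.9) and 84.2 and 83.2% in lines lacking CFIm59 to 97.4 and 96.0% in lines lacking CFIm68 (log2 2.07, adjusted p = 0.0023). Its paralogue UBE2Q2 stood at 6.17% in the control, 4.35 and 6.85% in lines lacking CFIm59 and 15.9 and 11.7% in lines lacking CFIm68, and did not pass (adjusted p = 0.2).

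The remaining pairs did not pass in the CFIm68 knockout. UBE2F, which carries NEDD8, had sites 368 nt apart, and its libraries overlapped in this pair. It stood at 81.0% in the control, 82.4 and 74.1% in lines lacking CFIm59 and 80.4 and 73.7% in lines lacking CFIm68. The pair is part of 9 last exon sites with 10 or more reads. The UBE2F site at 238951235, outside the pair, held 10.8% of the gene's reads in the control. It held 30.6 and 15.9% in lines lacking CFIm59 and 2.24 and 3.31% in lines lacking CFIm68. In the test of single sites below, it passed between the knockouts but not against the control. UBE2L3, a partner of ligases such as parkin, stood at 77.8%, then 75.2 and 72.3%, and 79.8 and 76.8% in the same order, with sites 1066 nt apart and 165 to 486 reads per library. UBE2H, with 29 to 70 reads per library, stood at 11.3%, then 36.6 and 15.1%, and 18.6 and 37.9%. The lines of each genotype thus differed from each other in UBE2H by as much as the groups did. UBE2E1, UBE2E2 and UBE2E3, a group of paralogues, were tested on an intron or upstream exon site against a last exon site. The intron or upstream exon site held 7.95% or less of the reads of both in every library.

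The counts are given by distance between the sites. Among the last exon pairs, 0 of 4 genes with sites under 250 nt apart (UBE2G2, UBE2O, UBE2T and UBE2Z) changed to proximal in the CFIm68 knockout, against 4.95% of all genes in that band. From 250 to under 1000 nt it was 4 of 7, against 28.7% of all, and from 1000 to under 4000 nt 8 of 12, against 45.9% of all. The single pair of 4000 nt or more, UBE2K, also changed, against 27.7% of all. UBE2O, an enzyme that acts as E2 and E3 at once, shows a close pair (76 nt), with 57.2% proximal use in the control, 48.6 and 64.0% in lines lacking CFIm59 and 62.1 and 63.8% in lines lacking CFIm68. Its CFIm59 knockout lines lay on both sides of the control. UBE2G2, the paralogue of UBE2G1 that serves protein disposal at the endoplasmic reticulum, had sites 70 nt apart and stood at 2.24% in the control, 2.58 and 2.86% in lines lacking CFIm59 and 3.10 and 3.08% in lines lacking CFIm68 (adjusted p = 0.674). UBE2T, an enzyme of the Fanconi anaemia repair pathway, and UBE2Z, which receives ubiquitin from UBA6, used their proximal sites for at most 7.29 and 7.77% of reads in any library.

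**Figure D2:**
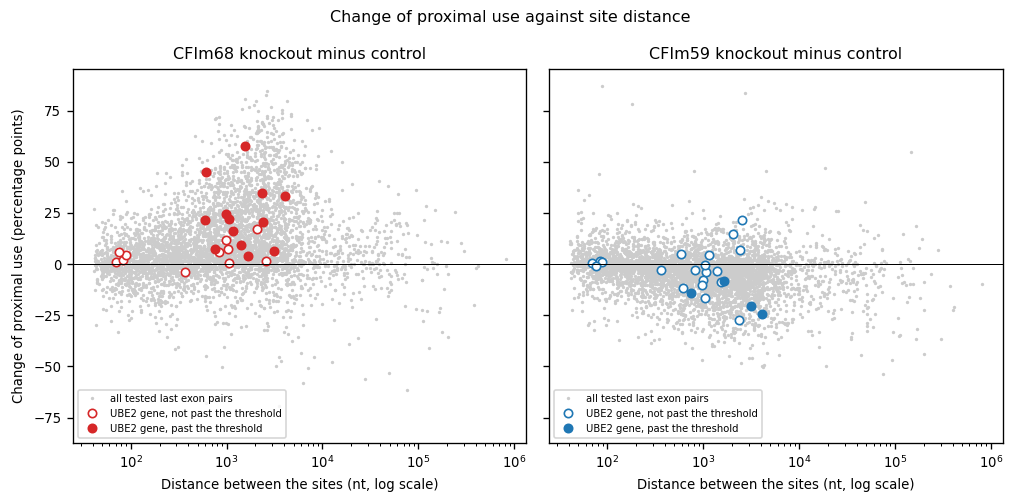
Change of proximal use in percentage points (y axis) against the distance between the sites in nt (x axis, log scale), for the CFIm68 knockout (left) and the CFIm59 knockout (right), each minus the control. Grey points are all tested last exon pairs and coloured points the 24 UBE2 pairs, filled where the gene passed the threshold: in the left panel 13 filled points all lie above 0, and in the right panel 4 lie below 0.

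In the CFIm59 knockout 4 of the 27 genes, among them UBE2B, UBE2K and UBE2V2, changed toward distal and 0 toward proximal. Of all tested genes, 1.02% changed to proximal and 5.38% to distal, and the median log2 change was -0.18 over the UBE2 genes and -0.34 over all. The control library is the same as in the comparison above, so the values of both comparisons share it. UBE2V2 had the lowest adjusted p (-20.3 points, log2 -2.31, SE 0.47, adjusted p = 0.00108). UBE2B (-13.9 points, log2 -1.53, adjusted p = 0.0411) and UBE2K (-24.2 points, log2 -1.43, adjusted p = 0.0438) also passed. In these 3 genes both CFIm59 knockout lines lay below the control. UBE2W and UBE2A differed by -27.1 and -16.7 points and did not pass (adjusted p of 0.167 and 0.138). For the 0 changes to proximal, 0 genes had an unadjusted p under 0.05 in that direction. DESeq2 called 0 either way of the 23 genes for which it gave an adjusted p, with an adjusted p of 0.0797 for UBE2V2, 0.392 for UBE2B and 0.45 for UBE2K. Without CFIm59 knockout line 1, or without line 2, UBE2V2 was the 1 gene called, and over the alternatives its adjusted p ranged from 3.38e-05 to 0.112.

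Between the knockouts, proximal use was higher in the CFIm68 knockout in 14 of the 27 genes and lower in 0. Of all tested genes, 40.7% were higher and 6.20% lower. The median log2 difference was 1.36 over the UBE2 genes and 0.89 over all. Among the 14 were UBE2A, UBE2B, UBE2D1, UBE2D3, UBE2G1, UBE2J1, UBE2J2, UBE2K, UBE2N, UBE2Q1, UBE2R2, UBE2V2 and UBE2W, and DESeq2 called 13 higher and 0 lower, with 0 at an unadjusted p under 0.05 in the lower direction. In 21 of the 27 genes the 2 lines of one knockout did not overlap with those of the other, which was so in 71.9% of all tested genes. The difference was 66.6 points in UBE2J1 (log2 4.86, adjusted p = 2.64e-14), 62.0 in UBE2W (log2 5.65, adjusted p = 1.26e-09), 57.7 in UBE2K (log2 4.82, adjusted p = 3.07e-15) and 56.6 in UBE2D3 (log2 4.54, adjusted p = 9.28e-19). UBE2A and UBE2N followed at 38.7 and 34.5 points. UBE2J2, which had not passed against the control, differed by 19.7 points here (log2 1.87, adjusted p = 0.00018). UBE2R2 differed by 13.7 points (log2 1.63, adjusted p = 0.000653), and without CFIm59 knockout line 2 its call ended (0.0622, in a range of 4.60e-08 to 0.0622). The difference in UBE2G1 was 16.5 points (log2 0.99, adjusted p = 0.0228) and lost its call in 5 of 11 alternatives, DESeq2 included (0.182, in a range of 7.54e-18 to 0.182).

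All sites with 25 or more reads were then tested singly, each against the other sites of its gene, where a share is the percent of the gene's reads at that site. This covered 91 sites in 27 UBE2 genes, 37 of them outside the tested pair. In the CFIm68 knockout, the share of 18 sites was lower and that of 4 higher, against 6.62% and 6.40% of all 19153 sites tested. The 18 lay in 12 genes and all downstream of the proximal site. Those that were the distal site of a tested pair lie there by definition. How often this held over all tested sites was not counted. Of the 18, 7 lay outside the tested pairs.

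One of these 7 was the UBE2G1 site at 4172554, 2771 nt beyond the proximal one, which held 28.6% of the gene's reads in the control, 35.8 and 38.7% in lines lacking CFIm59, and 2.98 and 5.24% in lines lacking CFIm68 (adjusted p = 2.13e-05). The site of UBE2D3 at 103715540 held 5.57% in the control, 4.81 and 6.92% in lines lacking CFIm59 and 0.327 and 0.325% in lines lacking CFIm68 (adjusted p = 3.41e-07). The site of UBE2N at 93799466 held 3.70%, 5.69 and 3.75%, and 0 and 0.341% in the same order, where 0 of 469 reads allow up to 0.64% (adjusted p = 0.00122). In each of these genes both CFIm68 knockout lines lay below the other 3 libraries.

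The site of UBE2J1 at 90036346 held 7.60% in the control, 21.7 and 11.5% in lines lacking CFIm59 and 0.905 and 0.909% in lines lacking CFIm68 (adjusted p = 0.0101). The site of UBE2K at 39781617, between the sites of its pair, held 9.20%, 12.1 and 15.7%, and 2.83 and 1.52% (adjusted p = 0.0258). In the other direction, a site of UBE2V2 at 48973498, upstream of its proximal site, rose from 2.34% in the control, with 2.14 and 0.971% in lines lacking CFIm59, to 11.6 and 7.63% in lines lacking CFIm68 (adjusted p = 0.00831). It was the 1 site outside a tested pair whose share was higher there. These p-values are edgeR's over all sites.

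**Figure D3:**
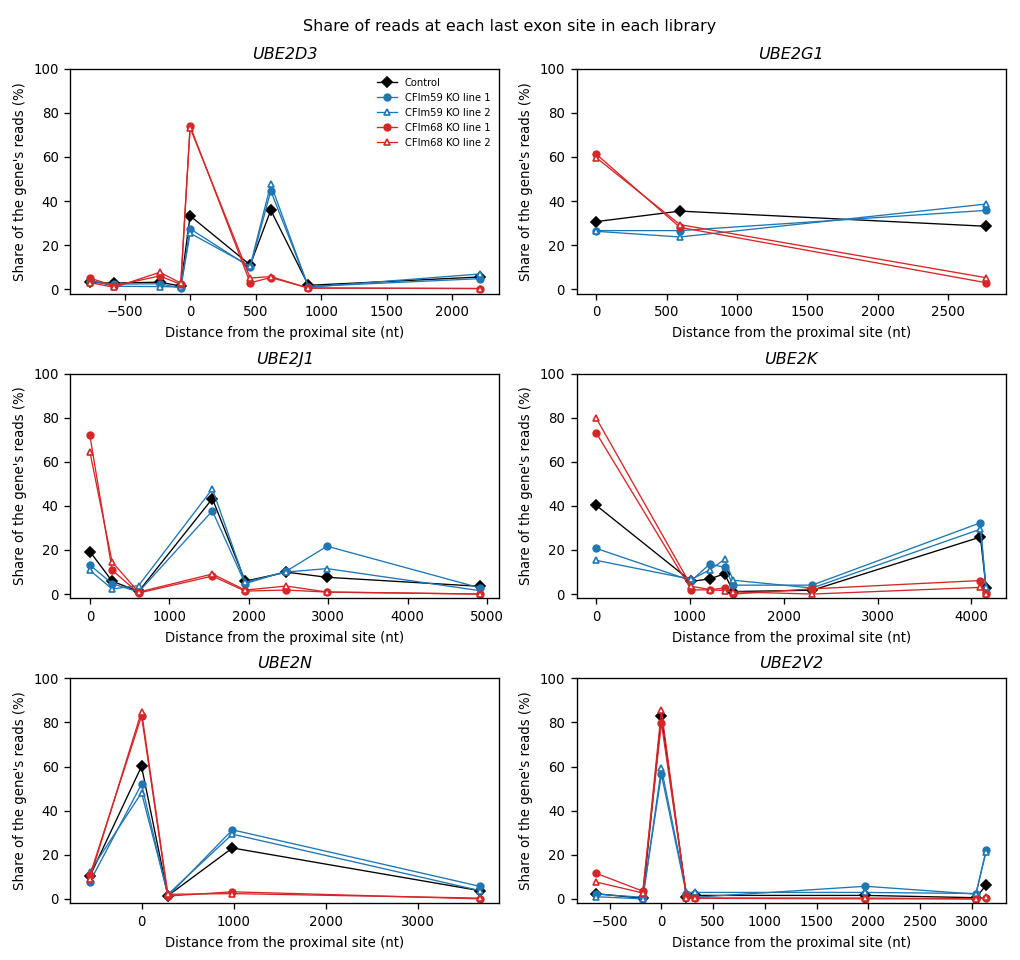
Share of a gene's reads at each of its last exon sites with 10 or more reads (y axis, percent) against the distance of the site from the proximal site of the tested pair in nt (x axis, negative upstream), in 6 UBE2 genes, 1 line per library coloured as in the key. In UBE2D3, UBE2J1, UBE2K and UBE2N the red lines of the CFIm68 knockout stand highest at 0 and lowest at the distal site of the pair, and in UBE2G1 they are highest at 0 and lowest at 2771 nt.

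In the CFIm59 knockout, 1 of the 91 sites had a higher share and 0 a lower one, against 0.266% and 0.459% of all sites, with 5 and 3 at an unadjusted p under 0.05 by edgeR and no other tool run. The 1 site was the distal one of UBE2V2, at 6.25% in the control, 22.1 and 21.4% in lines lacking CFIm59 and 0.539 and 0.763% in lines lacking CFIm68 (adjusted p = 0.0195). Between the knockouts, 17 sites were higher and 25 lower in the CFIm68 knockout, against 16.1% and 13.5% of all. The 25 all lay downstream of the proximal site. Of the 25, 12 lay outside the tested pairs, and the rest were distal sites of pairs, which lie there by definition. UBE2R2 gained at a site upstream of its proximal one, at 33917506, which held 3.56% in the control, 1.17 and 0% in lines lacking CFIm59 (0 of 191 reads, which allow up to 1.57%) and 6.51 and 7.69% in lines lacking CFIm68 (adjusted p = 0.000311). UBE2W was lower at its site at 74700363, with 25 and 29.1% in lines lacking CFIm59, 12.9% in the control and 3.81 and 1.33% in lines lacking CFIm68 (adjusted p = 4.50e-05). The 1 intron site among the 42 was that of UBE2L3 at 21969072, with 0.431 and 0.264% in lines lacking CFIm59, 1.33% in the control and 2.28 and 1.49% in lines lacking CFIm68 (adjusted p = 0.0306), on 30 reads over all libraries.

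The mean end position in the last exon, weighted by reads and counted in nt from the most upstream site taken, puts several sites of a gene in 1 number, and is given with no test. It took the last exon sites with 10 or more reads that lay within 10000 nt of the proximal site, which left out 1 site each of UBE2G2 and UBE2W. Both CFIm68 knockout lines lay below the control in 22 of 24 genes, against 66.8% of all 4675 last exon pairs, with a median difference of -125 nt. Both CFIm59 knockout lines lay above it in 15 of 24, against 57.7% of all, with a median of 70.2 nt. With no limit on the distance, chosen after seeing the data, the counts were 20 and 15 of 24. UBE2K had its mean end at 1605 nt in the control, 2034 and 2113 nt in lines lacking CFIm59, and 438 and 242 nt in lines lacking CFIm68. UBE2J1 stood at 1502 nt, then 1803 and 1651 nt, and 269 and 355 nt. In both genes the groups were in the same order, with the CFIm68 knockout nearest to the upstream site. UBE2F, whose pair overlapped, stood in that order too, at 255 nt, then 472 and 359 nt, and 138 and 189 nt. UBE2H stood at 3207 nt, then 3130 and 3214 nt, and 2611 and 2014 nt. UBE2W stood at 2018 nt, then 3084 and 3147 nt, and 667 and 832 nt, but its order rested on the limit. Its site at 74692336, which lay 12857 nt beyond the proximal one, held 0 reads in the control, 0 and 1 in lines lacking CFIm59 and 8 and 7 in lines lacking CFIm68. With that site UBE2W stood at 2018 nt in the control, 3084 and 3368 nt in lines lacking CFIm59 and 1662 and 2089 nt in lines lacking CFIm68, so that the control lay between the lines of the CFIm68 knockout. UBE2R2 and UBE2D1 were in another order, with both CFIm59 knockout lines below the control as well (UBE2D1 at 196 nt in the control, 128 and 155 nt in lines lacking CFIm59, and 22.6 and 0 nt in lines lacking CFIm68).

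**Figure D4:**
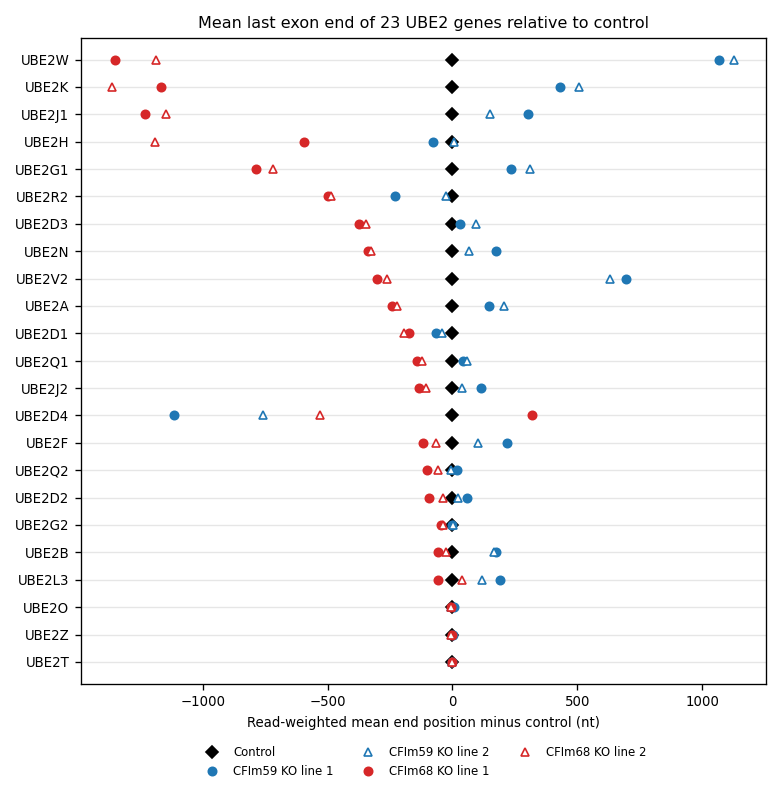
Read-weighted mean end position in the last exon minus that of the control in nt (x axis), over sites within 10000 nt of the proximal one, for 23 of the 24 UBE2 genes (y axis), 1 symbol per library: control (black, at 0), CFIm59 knockout lines (blue) and CFIm68 knockout lines (red). Both red symbols lie left of the control in 21 of the 23 genes drawn.

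Gene levels were read from all sites of a gene together, in CPM after TMM scaling. In bulk RNA, fewer cells of a kind and less RNA per cell cannot be told apart. Of the 32 UBE2 genes tested (all but UBE2U, with 1 read), 0 were higher and 0 lower in the CFIm68 knockout, against 1.58% and 2.03% of 14635 genes. With edgeR, 1 gene in each direction had an unadjusted p under 0.05, and DESeq2 called 0 and 0 of the 21 for which it gave an adjusted p. UBE2D3, whose site use changed from 48.1 to 93.0% on average, stood at 338 CPM in the control, 337 and 275 in lines lacking CFIm59 and 425 and 410 in lines lacking CFIm68 (CFIm68 knockout adjusted p = 0.566). UBE2J1 stood at 64.3 in the control, 63.6 and 53.8 in lines lacking CFIm59 and 76.8 and 48.8 in lines lacking CFIm68 (adjusted p = 0.984), so that the control lay between the lines of the CFIm68 knockout. A missed threshold does not show equal levels, as the SE of such a difference was log2 0.24 in UBE2D3.

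In the CFIm59 knockout, 2 genes were higher and 1 lower, against 6.98% and 6.87% of all genes. UBE2K rose from 65.4 CPM in the control to 119 and 106 in lines lacking CFIm59, with 73.7 and 87.9 in lines lacking CFIm68 (log2 0.78, adjusted p = 0.0421). UBE2S, which extends chains with the anaphase-promoting complex, rose from 69.9 to 128 and 109, with 77.1 and 76.8 in lines lacking CFIm68 (log2 0.76, adjusted p = 0.0461). The median log2 change of all tested genes on its chromosome 19 was 0.50 in this comparison, and its part in the result was not tested. UBE2V2 fell from 144 to 84.1 and 85.3, with 129 and 116 in lines lacking CFIm68 (log2 -0.77, adjusted p = 0.0277). In these 3 genes the CFIm59 knockout lines lay outside the range of the other libraries. All 3 calls ended with DESeq2 and without either CFIm59 knockout line, with adjusted p over the alternatives from 0.0204 to 0.208 in UBE2K, 0.0233 to 0.216 in UBE2S and 0.0111 to 0.157 in UBE2V2.

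Between the knockouts, 3 genes were higher and 3 lower in the CFIm68 knockout, against 9.46% and 10.3% of all genes. The higher ones were UBE2L6 (3.60 and 9.53 CPM in lines lacking CFIm59, 6.39 in the control, 17.4 and 14.7 in lines lacking CFIm68; log2 1.20, adjusted p = 0.0211), UBE2A and UBE2F. UBE2A stood at 81.0 and 51.8 in lines lacking CFIm59, 92.9 in the control and 134 and 123 in lines lacking CFIm68 (log2 0.97, adjusted p = 0.000969). UBE2F stood at 29.4 and 26.1, then 45.1, and 46.6 and 53.7 in the same order (log2 0.86, adjusted p = 0.00867). The control thus lay between the knockouts in UBE2A and UBE2F, and within the spread of the CFIm59 knockout lines in UBE2L6. UBE2B was lower in the CFIm68 knockout, at 109 and 183 in lines lacking CFIm59, 98.5 in the control and 69.8 and 76.8 in lines lacking CFIm68 (log2 -1.0, adjusted p = 0.000654). UBE2O stood at 88.3 and 97.8, then 69.6, and 49.3 and 69.3 (log2 -0.66, adjusted p = 0.0275), and UBE2S differed by log2 -0.62 (adjusted p = 0.0305). The median log2 difference of all tested genes on the same chromosome was -0.18 for UBE2B, -0.24 for UBE2O and -0.37 for UBE2S. It was 0.11 for UBE2A, 0.11 for UBE2F and 0.23 for UBE2L6, and its part in these results was not tested. The RAD6 homologues UBE2A and UBE2B, which both changed to proximal sites, thus differed in opposite directions in level. Without CFIm59 knockout line 2, UBE2A, UBE2B, UBE2F, UBE2O and UBE2S did not pass (adjusted p of 0.13, 0.188, 0.121, 0.185 and 0.0621), and without line 1 neither did UBE2L6, UBE2O and UBE2S (0.29, 0.0521 and 0.224). Over all alternatives the adjusted p ranged from 0.000183 to 0.13 in UBE2A, from 2.67e-05 to 0.188 in UBE2B, from 0.00819 to 0.142 in UBE2F, from 0.00631 to 0.315 in UBE2L6, from 0.00678 to 0.295 in UBE2O and from 0.0211 to 0.224 in UBE2S.

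UBE2C and UBE2M had no tested pair, and UBE2T had one with little proximal use, but all 3 could be read by level. UBE2C, which starts chains with the anaphase-promoting complex, stood at 177 CPM in the control, 213 and 159 in lines lacking CFIm59 and 171 and 128 in lines lacking CFIm68, with overlapping groups. UBE2M stood at 273 in the control, 400 and 371 in lines lacking CFIm59 and 291 and 345 in lines lacking CFIm68. Its CFIm59 knockout lines were the highest libraries, and it did not pass (log2 0.50, adjusted p = 0.176), with the median of chromosome 19 at log2 0.50 as for UBE2S. UBE2T stood at 203 in the control, 134 and 144 in lines lacking CFIm59 and 135 and 103 in lines lacking CFIm68, below the control in all 4 and not past the threshold in either knockout (adjusted p of 0.134 and 0.061).

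**Figure D5:**
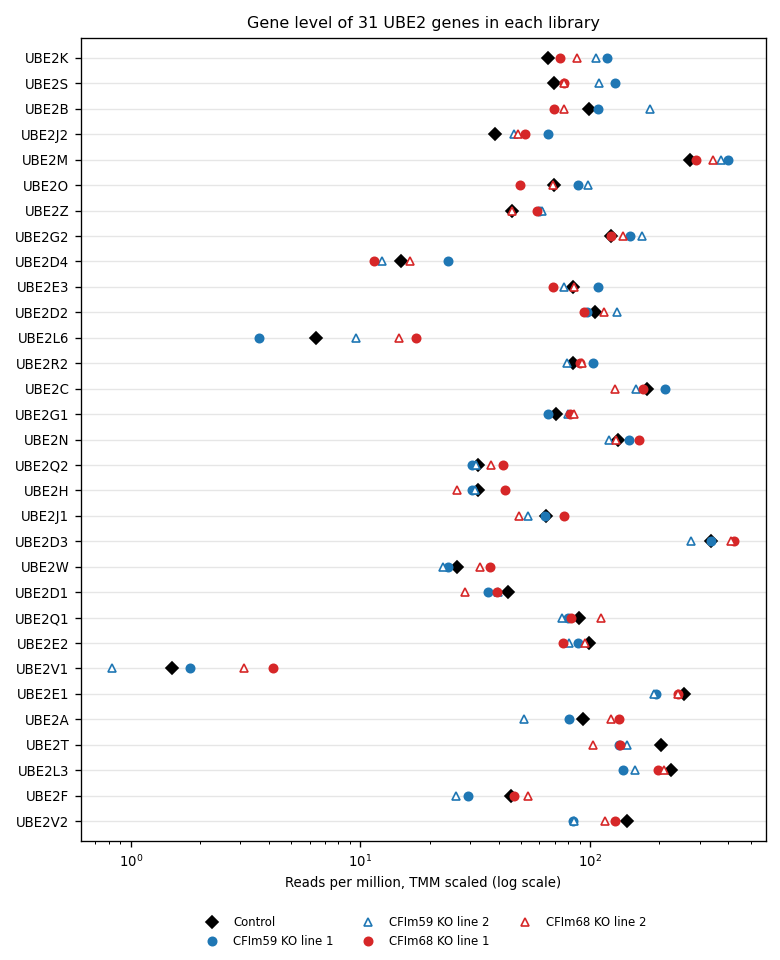
Gene level in CPM after TMM scaling (x axis, log scale) for 31 of the 32 UBE2 genes (y axis), 1 symbol per library: control (black), CFIm59 knockout lines (blue) and CFIm68 knockout lines (red), in order of the log2 change in the CFIm59 knockout. UBE2K and UBE2S, near the top, and UBE2V2, at the bottom, are the genes past the threshold in that knockout.

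Some reads could not be assigned to 1 gene. UBE2V1 overlaps TMEM189, with which it also forms a read-through transcript, and 24 of its sites with 1741 reads stood under those names, which left UBE2V1 with 28 reads of its own. The pair of those shared sites with most reads (chromosome 20, minus strand, 48697904 and 48697662) had a proximal use of 68.6% in the control, 70.8 and 67.1% in lines lacking CFIm59, and 73.1 and 79.9% in lines lacking CFIm68, and it cannot be assigned to UBE2V1. For UBE2M, the NEDD8-conjugating enzyme, a site with 1173 reads stood under its neighbour CHMP2A, and its own level is given without them. How reads that fit several places in the genome, such as paralogues and processed pseudogenes, were counted was not stated in the sources used here.

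The other genes of ubiquitin and ubiquitin-like conjugation were read from a list of 86, of which 58 had a tested pair. In the CFIm68 knockout 21 of the 58 changed to proximal and 1 to distal, and the median log2 change was 0.80. DESeq2 called 12 and 1, and over the alternatives the counts ranged from 7 to 21 and from 1 to 3. By role, the 21 were 2 of 7 modifiers, 2 of 5 E1 genes, 0 of 3 further E2 genes and 17 of 43 E3 genes and scaffolds to proximal, which stand beside the 25.3% of all genes. DCUN1D1, which promotes NEDD8 transfer to cullins with UBE2M or UBE2F, went from 12.5% proximal use in the control to 81.4 ± 0.16% (SD, n = 2; adjusted p = 2.90e-07), and the cullin CUL5 from 9.89 to 74.1 ± 3.12% (adjusted p = 1.25e-09). The ligase UBR3 reached 93.5 ± 7.59% from 33.3%. UBR1 was the 1 gene that went the other way, from 78.6 to 16.9 ± 2.65%, with sites 75908 nt apart. It stood at 50 and 0% in lines lacking CFIm59, so that the lone control lay above every knockout line. In UBR1 the CFIm59 knockout did not pass against the control (adjusted p = 0.216), nor did the knockouts against each other (adjusted p = 0.892). Its gene level was low, at 5.40 to 27.5 CPM over the libraries.

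In the CFIm59 knockout the list gave 2 to proximal and 7 to distal, against 1.02% and 5.38% of all genes. DESeq2 called 1 and 1 of the 40 for which it gave an adjusted p, and the counts ranged from 1 to 2 and from 1 to 8 over the alternatives. SAE1 was among those to proximal, and CUL4A, ARIH1, TRIP12 and CUL3 had the largest changes to distal in percentage points. The order differed on the log2 scale, where RBX1, the RING subunit of cullin ligases, came first. CUL4A, a cullin scaffold, fell from 68.3 to 31.5 ± 3.67% proximal use (adjusted p = 0.000439). Between the knockouts 31 were higher and 3 lower in the CFIm68 knockout, against 40.7% and 6.20% of all. DESeq2 called 23 and 2, in ranges of 11 to 31 and 1 to 4 over the alternatives. In gene level, 0 of 85 listed genes were higher and 1 lower in the CFIm68 knockout, against 1.58% and 2.03% of all. There were 6 higher and 7 lower in the CFIm59 knockout, against 6.98% and 6.87%, where DESeq2 called 1 and 2 and the alternatives gave 1 to 8 and 1 to 7. Between the knockouts 13 were higher and 10 lower in the CFIm68 knockout, against 9.46% and 10.3%, where DESeq2 called 2 and 7 and the alternatives gave 2 to 16 and 7 to 11. The 1 lower gene in the CFIm68 knockout was CUL4A, at 68.1 CPM in the control, 130 ± 23.5 in lines lacking CFIm59 and 31.1 ± 1.23 in those lacking CFIm68 (adjusted p = 0.00894). For the 0 higher genes there, edgeR gave 5 with an unadjusted p under 0.05, DESeq2 called 0 of the 32 for which it gave an adjusted p, and the alternatives gave 0 to 2 higher and 1 to 3 lower.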

How the data were processed

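Poly(A) site sequencing of 5 HEK293T libraries (1 control, 2 lines per knockout) was analysed. The deposited values are raw read counts per poly(A) site, with gene, transcript and site class per the file headers. Per the submitters' processing notes, the build was hg19, and TopHat2 2.1.0 and deepTools 2.4 were used in steps not named. For site calling, internal priming, the annotation release and the base of positions (0 or 1), no details were found in the sources used here. A site listed under several genes kept its reads at the first listing, as the 17824 repeated listings held 0 reads. The values count reads, not molecules, so intervals and floors (3 reads) cover counting error only.

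Pairs entered when both sites averaged 20 and each 5 or more reads per library. Pair, gene and single-site counts were fitted over all genes with edgeR 4.0.16 (R 4.3.3) quasi-likelihood tests, 2-sided, Benjamini-Hochberg adjusted, threshold 0.05, after a check on simulated data. Pair fits had a term per library; gene fits used filterByExpr and TMM. All 5 libraries shared 1 spread, so the lone control was assumed to vary like the knockout lines. DESeq2 1.42.0, other minimums, other site pairs and left-out libraries were alternatives. The members and gene lists were chosen with earlier results of these data known. Members with the largest changes among those past the threshold are named with values in every library (up to 10 in the CFIm68 knockout, 6 in each other comparison, 8 for gene levels and 6 single sites outside the pair); paralogues are given beside them, and up to 4 listed pathway genes per direction. Results for a few genes are not reported here, though counts over all genes or list members include them.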

Additional observations from a re-analysis of the deposited data

How the results depend on the processing

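The UBE2 count to proximal in the CFIm68 knockout stayed at 12 to 14 when 1 library was left out, and that between the knockouts at 12 to 14; neither moved by over 1.5 times in any alternative run. No UBE2 gene past the threshold in site use or gene level reversed its direction in any alternative run on it. The 4 changes to distal in the CFIm59 knockout became 0 with DESeq2, 1 with no minimum beyond 1 read and 1 when the outermost sites were paired, and 1 to 4 without 1 library, and diffSpliceDGE over all sites called 2 genes in place of 4. Between the knockouts 0 to 1 changed to distal without 1 library. In the CFIm59 knockout the 2 higher genes became 0 with DESeq2, 0 with no filter and 0 with the replicate block (0 to 2 without 1 library), and the 1 lower gene 0 with DESeq2 (0 to 2). Between the knockouts the 3 higher and 3 lower became 1 and 1 with DESeq2 (1 to 3 and 0 to 3 without 1 library). In the CFIm68 knockout the 0 lower became 1 with last exon sites only and 1 with no filter (0 to 1). With 100 reads per site only 36 sites were tested, and the counts became 11 lower (from 18) in the CFIm68 knockout and 7 higher (from 17) and 14 lower (from 25) between the knockouts; without 1 library the counts were 13 to 18 lower and 2 to 3 higher in the CFIm68 knockout, 0 to 1 higher in the CFIm59 knockout, and 10 to 17 higher and 23 to 25 lower between them. Where a cause is not in the alternative itself, the cause was not tested. The replicate numbers are only shared numbers: same-numbered lines of the knockouts correlated at 0.0317 in site ratios and -0.0214 in gene levels. The replicate block moved no other count by over 1.5 times. Depth limits UBE2D4, UBE2H, UBE2F and UBE2W, whose pairs held under 100 reads in every library.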
